A study of Mus musculus with 6 samples.

Results

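The 44 genes described here carry the integrated stress response and the unfolded protein response, with a small group of cytosolic heat shock genes beside them. They were taken by symbol from rows of the array table that GEO's platform annotation pairs with 1 gene symbol. Of the 44, 42 had such a row, out of 19938 genes in all. Pycr1 and Hspa1b had none and are not analysed here. The cultures were primary neural cells from the brains of OF1 mouse embryos at embryonic day 17, differentiated in fetal calf serum into a mixture of neurons and glia. In serum-free medium without growth factors, 3 samples were treated with 1,25-dihydroxyvitamin D3 (1,25D), the hormonally active form of vitamin D, at 10 nM. Another 3, the controls, labelled as not treated, received vehicle by the protocol. RNA from each was hybridised to 1 Affymetrix array, numbered 1 to 3 in each group. How long treatment lasted is not stated by the labels, and they do not say whether an equal number marks a shared litter or day.

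Cells answer protein-folding and nutrient stress through kinases that phosphorylate the translation factor eIF2alpha. Among them are Eif2ak3 (PERK), which senses unfolded protein in the endoplasmic reticulum (ER), and Eif2ak4 (GCN2), which senses uncharged tRNA. Bulk translation then slows while the transcription factor ATF4 is made, and ATF4 with its partners drives genes of amino acid synthesis, tRNA charging and stress feedback. In the ER, Ern1 (IRE1) splices Xbp1 mRNA and Atf6 is cut to an active factor, and both raise chaperones and degradation components of the ER. Heat shock factor 1 runs a separate programme of chaperones in the cytosol. Much of this regulation acts on splicing, translation, cleavage or phosphorylation, which these arrays did not measure.

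Values are log2 intensities, and differences are 1,25D minus control. Intensities of different genes were not compared, because probes differ in brightness. The median intensity over all genes was between 240.4 and 252.9 on the 6 arrays. Hormone exposure could be checked on S100g, a calcium binder whose gene the vitamin D receptor is known to activate. S100g had log2 intensities of 8.68, 8.97 and 8.81 on 1,25D arrays 1, 2 and 3, against 7.48, 7.10 and 7.18 on the control arrays (limma, adjusted p = 0.022). Vdr, the gene of the receptor, had 9.63, 8.51 and 8.43 with 1,25D, against 7.25, 6.93 and 7.11 in controls. It was not called (limma, adjusted p = 0.38, and 0.052 with replicate number as a block). Cyp24a1, also planned for this check, had no row with its symbol alone. Of the markers that define the labelled cell mixture, Gfap of astrocytes lay between 11.00 and 12.06. Of the 6 neuron markers, Map2 lay between 10.11 and 11.24, Stmn2 between 7.89 and 9.71 and Syt1 between 7.81 and 8.36. Tubb3 lay between 6.75 and 7.87, Rbfox3 between 7.25 and 7.98 and Snap25 between 7.15 and 8.48. Of the microglia markers, Aif1 lay between 5.97 and 6.22 and Cx3cr1 between 8.00 and 8.28. Without a detection call these ranges do not show which cell types were present or absent, and no marker is at 0, as the authors' RMA summary gives no zeros. None of the 41 measured markers of neurons, glia, ependymal, vascular and meningeal cells was called. In such bulk cultures, fewer cells of a type and less RNA per cell cannot be told apart.

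Promoter sequences of the members were searched for short motifs bound by factors of these responses. RefSeq windows from 250 bases before to 50 bases after the annotated start (build GRCm38.p6) were found for 41 of the 44 genes. The core of the amino acid response element bound by ATF4 and C/EBP proteins, TGATGNAA, was searched on both strands. It was present in 3.97% of all 32851 promoter windows and in those of 7 members: Nupr1, Atf3, Asns, Pycr1, Chac1, Trib3 and Herpud1. The sequences of 5 of them that the results below turn on follow 5′ to 3′ on the strand of the gene, with the match in capitals. In Nupr1, Trib3, Chac1 and Herpud1 the match is on the opposite strand, so that its reverse complement is seen.
Nupr1, chr7:126625538-126625615, minus strand: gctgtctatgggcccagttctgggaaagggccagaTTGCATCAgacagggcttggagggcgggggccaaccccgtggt
Trib3, chr2:152344011-152344081, minus strand: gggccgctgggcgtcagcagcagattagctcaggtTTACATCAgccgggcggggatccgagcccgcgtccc
Chac1, chr2:119351014-119351091, plus strand: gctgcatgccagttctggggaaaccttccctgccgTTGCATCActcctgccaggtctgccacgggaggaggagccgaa
Asns, chr6:7693190-7693267, minus strand: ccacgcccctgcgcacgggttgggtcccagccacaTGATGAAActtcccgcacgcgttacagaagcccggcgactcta
Herpud1, chr8:94386282-94386359, plus strand: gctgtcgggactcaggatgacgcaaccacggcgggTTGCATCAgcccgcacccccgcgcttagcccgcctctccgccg

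The ER stress response element bound by ATF6 with NF-Y, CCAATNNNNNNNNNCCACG, was present in 0.119% of all windows. It was found in 6 of the 9 ER chaperones with a window (Hspa5, Hsp90b1, Calr, Canx, Dnajc3 and Creld2) and in Syvn1. No member's window held both elements. The windows of 3 chaperones follow, again in the direction of the gene, with the match in capitals. That of Creld2 lies on the opposite strand.
Hspa5, chr2:34771990-34772078, plus strand: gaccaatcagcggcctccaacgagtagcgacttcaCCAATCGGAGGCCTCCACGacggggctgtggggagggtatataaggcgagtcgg
Dnajc3, chr14:118937792-118937880, plus strand: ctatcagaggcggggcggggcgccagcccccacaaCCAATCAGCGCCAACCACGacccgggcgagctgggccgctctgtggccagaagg
Creld2, chr15:88819485-88819573, plus strand: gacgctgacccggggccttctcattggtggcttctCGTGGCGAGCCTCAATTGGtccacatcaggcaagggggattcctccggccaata

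A heat shock element of 3 alternating units, GAANNTTCNNGAA, was present in 0.603% of windows and, among the members, in that of Hsph1. A match describes letters in a window and does not show binding, and no match says only that these letters are not in it.

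**Figure D1:**
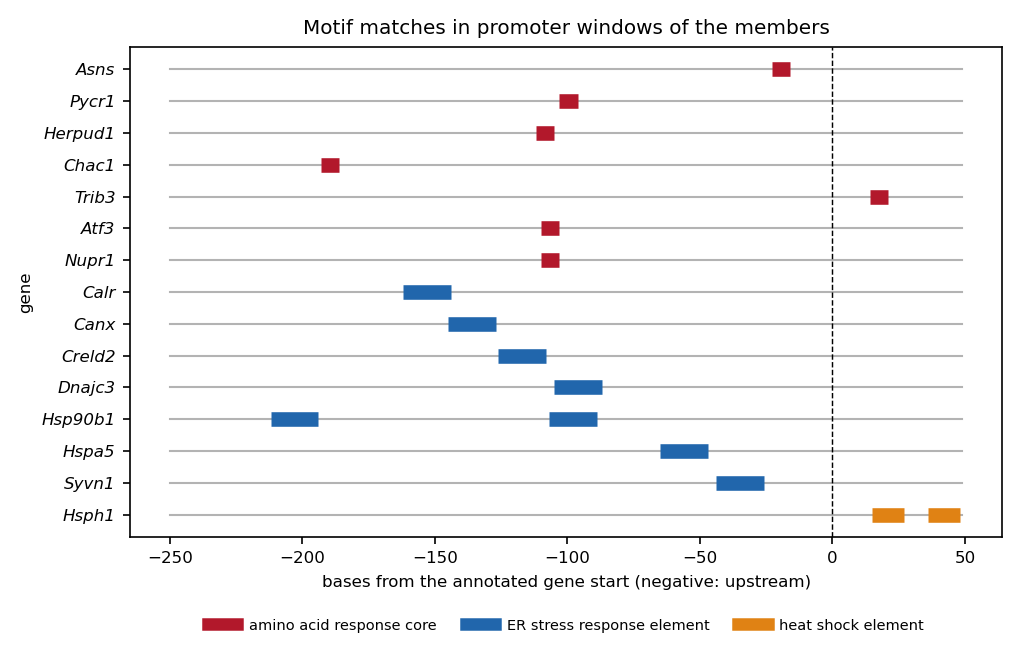
Positions of motif matches in the promoter windows of the 15 members that had any, in bases from the annotated gene start. Red marks the amino acid response core, blue the ER stress response element and orange the heat shock element. Blue matches lie in 6 chaperones and Syvn1, and red ones in Nupr1, Atf3, Asns, Pycr1, Chac1, Trib3 and Herpud1. Syvn1 and Herpud1 belong to the same list, ER-associated degradation. The orange matches of Hsph1 are the same genomic site, measured from different annotated starts.

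With 1,25D, no member was called higher or lower at an adjusted p under 0.05 (limma). Over all genes 5 were called higher, 0.0251%, and 0 lower. With replicate number as a block, again no member was called, against 18 genes higher (0.0903%) and 0 lower. At an unadjusted p under 0.05 there were 2 members of 42 (4.76%, Nupr1 and Hspa1a), against 1.48% of all genes. In the blocked fit these numbered 6 (14.3%), against 5.78%, and all 6 had a higher mean with 1,25D. These 6 were Nupr1, Hspa1a, Atf5, Herpud1, Cebpb and Ddit4. The mean difference was above 0 for 26 members, 61.9%, against 53.0% of all genes. The median difference over the members was 0.06, against 0.01 over all genes.

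Per replicate number, 11 members (26.2%) were higher with 1,25D in all 3 pairs, against 14.8% of all genes. They were Atf5, Ddit3, Cebpb, Nupr1, Mthfd2, Ddit4, Trib3, Hsp90b1, Manf, Herpud1 and Hspa1a. Atf3, Atf6 and Hsph1 (7.14%) were lower in all 3, against 11.0% of all genes. Of all genes, 1094 had identical values on both number 1 arrays and could count as neither, which lowers both all-gene shares. No member was among them. After quantile normalisation, 16 members (38.1%) were higher in all 3 pairs, against 14.2% of all genes, and 1, Atf6 (2.38%), was lower, against 12.3%. All 1,25D arrays lay above all control arrays for Nupr1, Atf5, Trib3 and Hspa1a (9.52%), against 2.63% of all genes. All lay below for Hsph1, against 1.52% of all genes. The groups overlapped for the other 37 members.

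**Figure D2:**
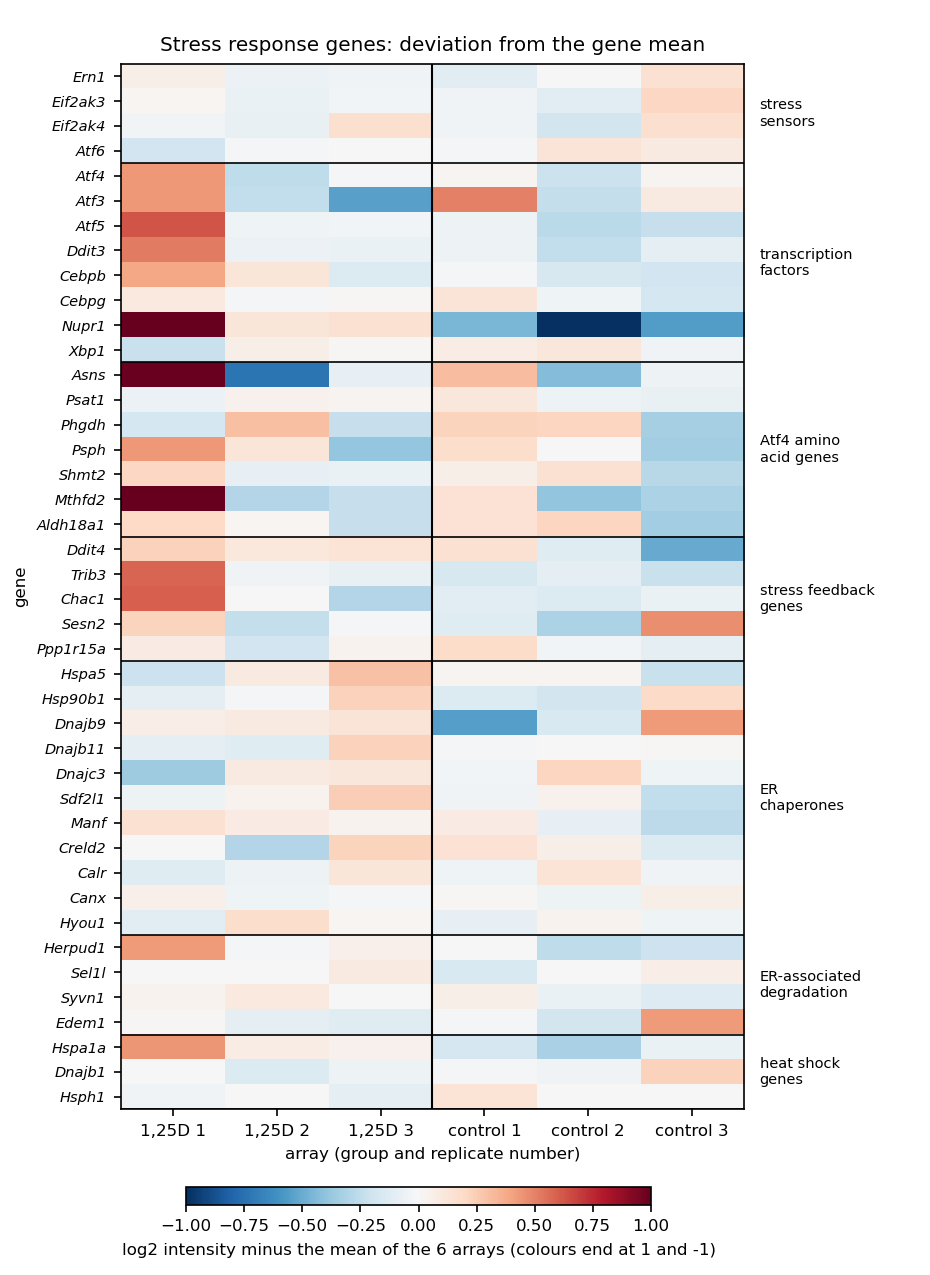
Log2 intensity of each of the 42 measured members on each array, minus the gene's mean over the 6 arrays, by role. Red is above and blue below that mean. 1,25D array 1 stands out in red for Nupr1, Atf5, Asns, Mthfd2, Trib3 and Chac1, while Xbp1 has its lowest value there.

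**Figure D3:**
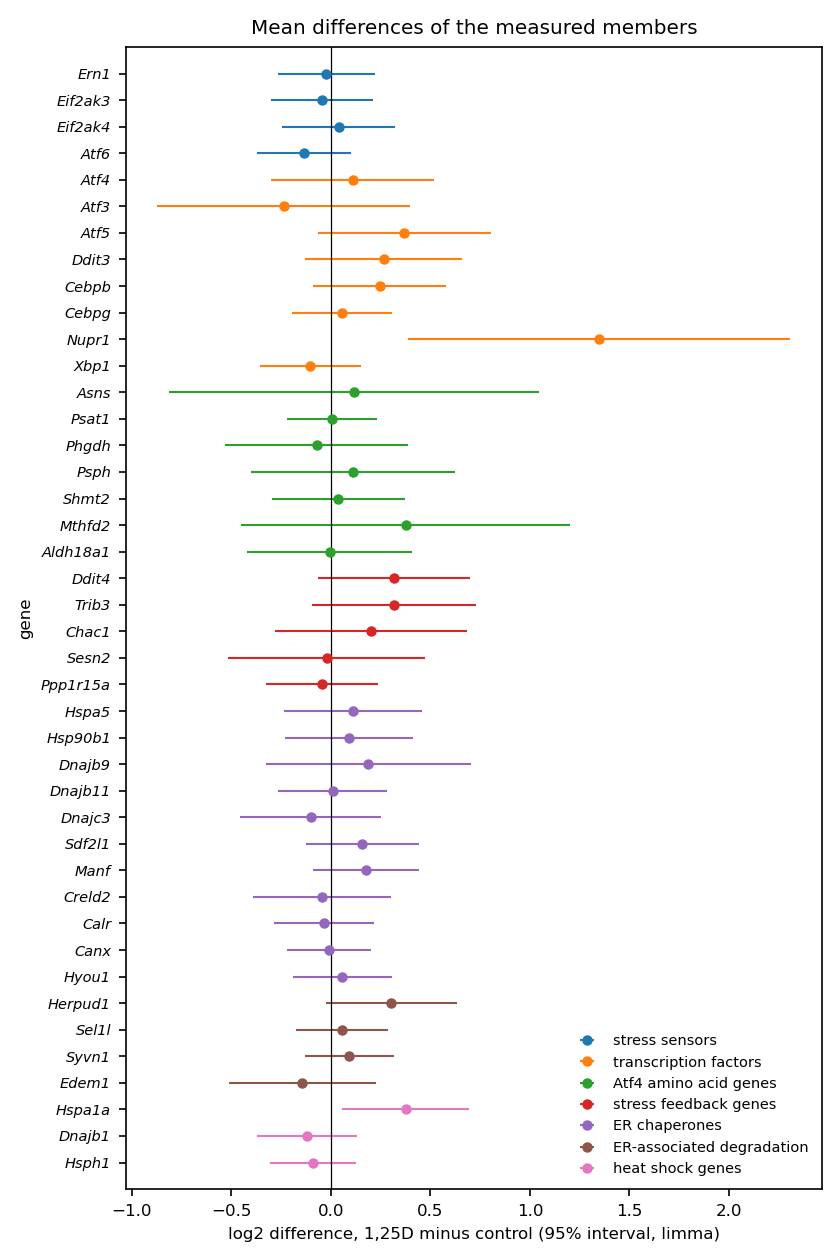
Log2 difference of each measured member, 1,25D minus control, with its 95% interval from limma, coloured by role. In this fit, without the replicate block, the intervals of Nupr1 and Hspa1a lie above 0, and those of the other 40 members include 0. With the block, those of Atf5, Herpud1, Cebpb and Ddit4 also lay above 0.

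The 4 stress sensors had mean differences between -0.14 and 0.04. Atf6, the ER-membrane precursor that is cut under folding stress, had values of 9.60, 9.78 and 9.79 on 1,25D arrays 1, 2 and 3, against 9.78, 9.92 and 9.89 on control arrays 1, 2 and 3. Each 1,25D array was below its own-numbered control, but 1,25D arrays 2 and 3 lay just above control array 1. The difference was -0.14 ± 0.10 (SE). Ern1, the kinase and nuclease of the IRE1 branch, had 8.30, 8.18 and 8.20 with 1,25D, against 8.13, 8.24 and 8.39 in controls. Eif2ak3, the PERK kinase, had 8.46, 8.38 and 8.42 with 1,25D, against 8.41, 8.34 and 8.65 in controls. For both, the 1,25D arrays fell inside the range of the controls. The differences were -0.02 for Ern1, with a 95% interval from -0.26 to 0.22, -0.05 for Eif2ak3 (-0.30 to 0.21) and 0.04 for Eif2ak4 (-0.24 to 0.32).

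Among the transcription factors, Nupr1 had the largest difference of the members. Nupr1 encodes a small stress-induced chromatin protein that acts with ATF4. Its values were 10.08, 8.45 and 8.49 on 1,25D arrays 1, 2 and 3, against 7.88, 7.33 and 7.77 on the control arrays. All 3 treated arrays were above all 3 controls, and 1,25D array 1 stood well above the other 2. The means were 9.01 ± 0.93 with 1,25D and 7.66 ± 0.29 in controls (SD, n = 3 each), a 2.55-fold difference with a 95% interval from 1.31 to 4.95. By pair the log2 difference was 2.20, 1.13 and 0.72, and without 1,25D array 1 the mean difference was 0.81, against 1.35 over all arrays. The adjusted p of Nupr1 was 0.33 in the blocked fit and 1.00 in the unblocked one (limma). In the blocked fit without replicate 1 it was called, with a log2 difference of 0.92 and an adjusted p of 0.023 from 2 pairs (limma). That fit was chosen after seeing the data, and it called more of all genes than the blocked fit of every array (last section).

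Atf5, a relative of ATF4 that is likewise under translational control, had 9.27, 8.60 and 8.62 with 1,25D, against 8.60, 8.37 and 8.42 in controls. The groups did not overlap, though 1,25D array 2 exceeded control array 1 by little. Its difference was 0.37 ± 0.19 (SE), or 0.68, 0.23 and 0.20 by pair. Ddit3, the factor CHOP that acts downstream of ATF4 in prolonged stress, had 8.89, 8.31 and 8.30 with 1,25D, against 8.32, 8.12 and 8.27 in controls. Only 1,25D array 1 lay above the controls, and the difference was 0.26 ± 0.17 (SE). Cebpb, a C/EBP partner factor, showed 0.40, 0.28 and 0.06 in the 3 pairs.

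Atf4 itself had 8.77, 8.09 and 8.33 with 1,25D, against 8.37, 8.13 and 8.37 in controls. It was high on 1,25D array 1 and inside or below the control range on the other 2. The mean difference of 0.11 had a 95% interval from -0.30 to 0.52, and without 1,25D array 1 it was -0.08. Atf3, an ATF4-induced repressor, ran the other way, at 9.32, 8.64 and 8.34 with 1,25D, against 9.39, 8.65 and 8.98 in controls. Both number 1 arrays were bright for it, and its pair differences were -0.07, -0.01 and -0.64. Xbp1, whose spliced mRNA encodes the IRE1-dependent factor, had 9.96, 10.24 and 10.19 with 1,25D, against 10.25, 10.30 and 10.14 in controls, a difference of -0.10 ± 0.11 (SE). Its probes were not read by splice form here. Cebpg, a dimer partner of ATF4, had a difference of 0.06.

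Genes of amino acid synthesis that ATF4 induces separated into those that were high on 1,25D array 1 and those that were not. Mthfd2, the mitochondrial folate enzyme, had 9.49, 8.12 and 8.18 with 1,25D, against 8.56, 8.02 and 8.09 in controls. Asns, asparagine synthetase and a standard readout of amino acid shortage, had 11.22, 9.51 and 10.15 with 1,25D, against 10.54, 9.81 and 10.18 in controls. Both were brightest on 1,25D array 1, and among the controls both were brightest on array 1. The pair differences were 0.94, 0.10 and 0.09 for Mthfd2 and 0.68, -0.30 and -0.03 for Asns. Without 1,25D array 1 the mean difference turned to -0.07 for Mthfd2 and -0.35 for Asns, against 0.38 and 0.12 over all arrays. The 95% interval of Asns, from -0.81 to 1.05, was the widest of this list.

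The serine branch was mixed. Psph, the last enzyme of serine synthesis, had 9.76, 9.44 and 8.94 with 1,25D, against 9.50, 9.33 and 8.98 in controls. It too was highest on 1,25D array 1, and its pair differences were 0.26, 0.11 and -0.04. Phgdh and Psat1, the first enzymes of that route, had pair 1 differences of -0.40 and -0.17, and mean differences of -0.07 and 0.01. Shmt2, which moves carbon from serine into folate, was highest on 1,25D array 1, with a mean difference of 0.04. Aldh18a1, which starts proline synthesis, had a mean difference of -0.01. The median of the 7 measured genes was 0.04, and it was -0.07 without 1,25D array 1.

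Of the 5 feedback genes, Trib3 encodes a pseudokinase that restrains ATF4 and CHOP. Trib3 had 8.29, 7.67 and 7.63 with 1,25D, against 7.55, 7.62 and 7.48 in controls. The groups did not overlap, but arrays 2 and 3 exceeded the highest control by under 0.1. Its difference was 0.32 ± 0.18 (SE). Chac1, a glutathione-degrading enzyme that ATF4 induces strongly, had 9.02, 8.41 and 8.13 with 1,25D, against 8.31, 8.29 and 8.36 in controls. Here 1,25D array 1 was the highest of the 6 and 1,25D array 3 the lowest, and without 1,25D array 1 the mean difference was -0.05, against 0.20 over all arrays. Ddit4, an inhibitor of mTORC1 also called REDD1, had 10.02, 9.89 and 9.92 with 1,25D, against 9.94, 9.67 and 9.28 in controls. For this gene the controls, not the treated arrays, were spread, and the pair 3 difference of 0.64 exceeded those of pairs 1 and 2 (0.08 and 0.23). Sesn2, another brake on mTORC1, and Ppp1r15a, the phosphatase subunit GADD34 that restores translation, had differences of -0.02 and -0.05.

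**Figure D4:**
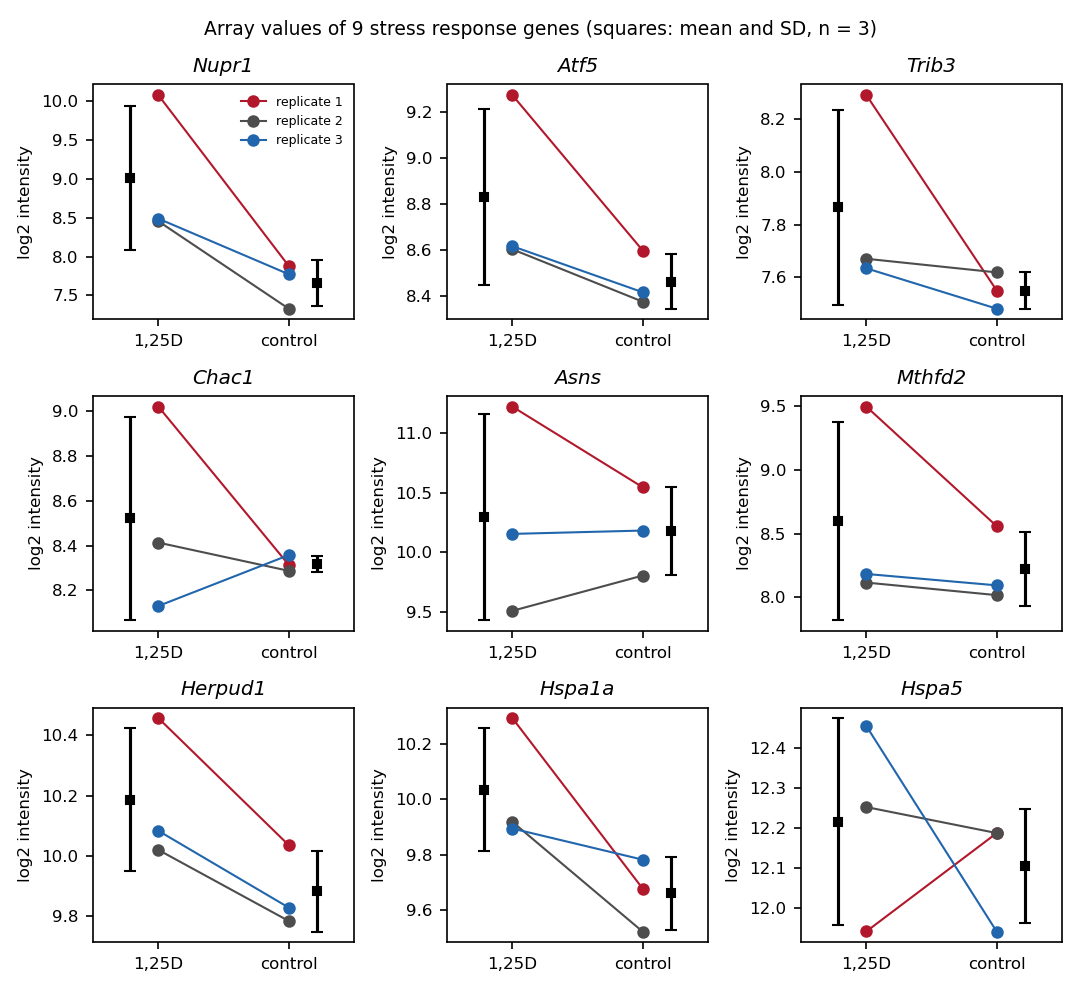
Log2 intensity of 9 members on each array, 1,25D left of control, with lines joining equal replicate numbers and black squares for the mean and SD (n = 3). Red points (replicate 1) lie highest with 1,25D for all but Hspa5, where replicate 3 is highest.

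The ER chaperones had mean differences between -0.10 and 0.19. Hspa5, the master chaperone BiP, had 11.94, 12.25 and 12.45 with 1,25D, against 12.19, 12.19 and 11.94 in controls. Among the treated arrays it was lowest on array 1, on which Nupr1, Atf5, Asns, Mthfd2, Trib3 and Chac1 were highest. Its difference was 0.11 ± 0.15 (SE), a 1.08-fold change with a 95% interval from 0.85 to 1.37. Manf, a secreted ER-stress protein with neurotrophic action, had 9.77, 9.70 and 9.65 with 1,25D, against 9.70, 9.54 and 9.36 in controls. Sdf2l1, a partner of BiP, had 9.28, 9.36 and 9.57 with 1,25D, against 9.29, 9.37 and 9.08 in controls. Manf was higher in every pair with a difference of 0.18, whereas Sdf2l1 differed in pair 3 (0.49) and by -0.01 in pairs 1 and 2.

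The other 8 chaperones had mean differences between -0.10 (Dnajc3) and 0.19 (Dnajb9). Dnajb9, a BiP co-chaperone that depends on XBP1, had pair differences of 0.62, 0.24 and -0.29. Its treated arrays were alike (11.74, 11.76 and 11.80), and its controls ran from 11.12 to 12.09. Canx and Calr, the lectin chaperones calnexin and calreticulin, had differences of -0.01 and -0.04, and Hsp90b1 (GRP94) of 0.09. Dnajb11 and Hyou1, cofactors of BiP, had 0.01 and 0.06, and Creld2, a secreted ER-stress protein, -0.05. Of the 11 chaperones, 4, 6 and 9 were above 0 in pairs 1, 2 and 3. For all genes the shares above 0 were 49.1%, 57.2% and 47.9%. The pair 1 share counts genes identical on both number 1 arrays as not above 0.

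In ER-associated degradation, which exports misfolded protein to the proteasome, Herpud1 had the largest difference. It organises the degradation complex and is induced by both ATF6 and ATF4. Herpud1 had 10.46, 10.02 and 10.08 with 1,25D, against 10.04, 9.78 and 9.83 in controls. Treated array 1 was the brightest, array 3 was also above every control, and array 2 lay just below control array 1. The pair differences of 0.42, 0.24 and 0.25 were alike, with a mean of 0.30 ± 0.14 (SE; 1.23-fold, adjusted p = 1.00, and 0.63 with the block, limma). Syvn1, the ubiquitin ligase HRD1, had 9.26, 9.32 and 9.22 with 1,25D, against 9.28, 9.16 and 9.09 in controls, groups that overlapped through control array 1. Sel1l, its partner, and Edem1, which recognises trimmed glycans, had differences of 0.05 and -0.14.

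The cytosolic heat shock genes did not move together. Hspa1a, the inducible HSP70, had 10.29, 9.92 and 9.89 with 1,25D, against 9.68, 9.52 and 9.78 in controls. All treated arrays were above all controls, with a difference of 0.37 ± 0.14 (SE), a 1.30-fold change with a 95% interval from 1.04 to 1.62. The pair differences were 0.62, 0.40 and 0.11, and the adjusted p was 1.00 (0.68 with the block, limma). Hspa1a has a near-identical copy, Hspa1b, so the row can hold signal of both. Dnajb1, the HSP40 that is induced with it, had 8.69, 8.56 and 8.64 with 1,25D, against 8.68, 8.66 and 8.92 in controls, a difference of -0.12 ± 0.11 (SE). Hsph1, an HSP110 nucleotide exchange factor, had 9.82, 9.85 and 9.76 with 1,25D, against 9.99, 9.86 and 9.86 in controls. Its groups did not overlap, but the gap was under 0.01 and the difference was -0.09.

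Large differences were most frequent in pair 1, though the median over all members was not largest there. The medians were 0.05, 0.06 and 0.08 in pairs 1, 2 and 3, and 26, 25 and 27 of 42 members were above 0. In pair 1, 8 of 42 (19.0%) were at least 1.5-fold higher with 1,25D, against 1.09% of all genes: Nupr1, Atf5, Asns, Mthfd2, Trib3, Chac1, Dnajb9 and Hspa1a. In pair 2 this held for Nupr1 alone (2.38%, against 0.481% of all genes). In pair 3 it held for Nupr1 and Ddit4 (4.76%, against 1.24%). At least 1.5-fold lower were 0 members in pair 1 (1.74% of all genes), 0 in pair 2 (0.441%) and Atf3 in pair 3 (2.38%, against 0.908%). These counts were made after the values had been seen.

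By list, the pair medians took different orders. Transcription factors had median differences of 0.40, 0.10 and 0.05 in pairs 1, 2 and 3, feedback genes of 0.35, 0.08 and 0.13, and ER chaperones of -0.03, 0.01 and 0.16. Those of the other lists varied less or otherwise, with 0.15, 0.09 and 0.10 for amino acid genes and 0.09, 0.13 and 0.08 for ER-associated degradation. Stress sensors had 0.03, 0.00 and -0.14, and heat shock genes 0.01, -0.01 and -0.10. The medians over all genes were 0.00, 0.03 and -0.01. The highest value of the 6 fell on 1,25D array 1 for 15 members (35.7%), against 21.7% of all genes. They included 5 of 8 transcription factors, 4 of 7 amino acid genes and 3 of 5 feedback genes, but 1 of 11 ER chaperones. Chaperones more often peaked on 1,25D array 3, which was the highest for 5 of 11 and for 13.5% of all genes. No difference between lists was tested, since each pair holds 1 array per group. Leaving out replicate 1, 17 members (of 42) were higher in both remaining pairs, against 27.1% of all genes, and 7 were lower, against 21.9%.

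**Figure D5:**
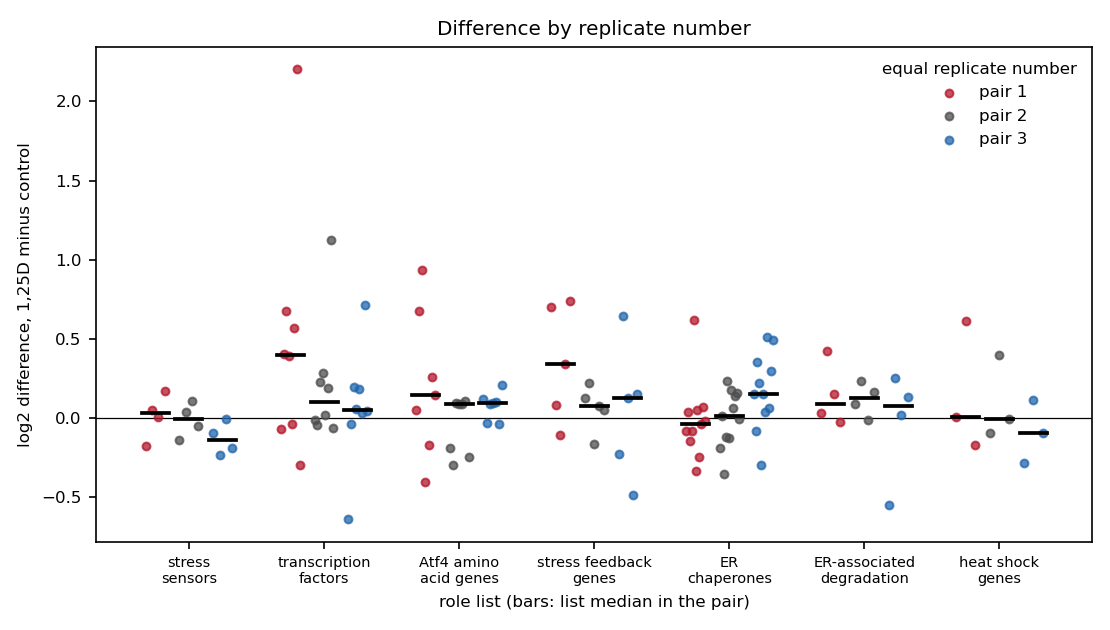
Log2 difference, 1,25D minus control, of each measured member within each equal replicate number, by role, with black bars for the list median. In pair 1 (red) the medians of transcription factors and feedback genes are 0.40 and 0.35, while that of ER chaperones is -0.03.

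Markers of several cell types also differed within pairs, and not in pair 1 alone. In pairs 1, 2 and 3 the median difference was -0.36, -0.01 and 0.06 for 6 astrocyte markers. It was -0.27, -0.20 and 0.02 for 6 neuron markers and -0.25, -0.16 and 0.20 for 6 ependymal markers. Meningeal fibroblast markers had 0.19, 0.13 and 0.02, and endothelial and pericyte markers 0.00, 0.30 and 0.05. Microglia markers had 0.07, 0.16 and 0.07, and oligodendrocyte lineage markers -0.06, -0.09 and 0.11. Mean differences were above 0 for 0 of 6 neuron, 0 of 6 astrocyte, 2 of 6 ependymal and 2 of 5 oligodendrocyte markers. They were above 0 for 5 of 6 microglia, 5 of 6 endothelial and pericyte and 4 of 6 fibroblast markers. Over all genes the share above 0 was 53.0%. Summed over a list, astrocyte intensity ranged from 20394 to 29910 on 1,25D arrays and from 19396 to 30000 on control arrays. Neuron sums were 2034 to 3603 with 1,25D and 2625 to 3859 in controls, and 1,25D array 1 had the lowest. Fibroblast sums did not overlap, at 3744 to 4813 with 1,25D and 2898 to 3648 in controls. A sum is carried by its brightest probes, here Islr, Col1a1 and Pdgfrl, with differences of 0.84, 0.42 and -0.07. The fibroblast markers Col1a2, Dcn and Lum had differences of -0.04, 0.06 and 0.05, and the median over that list was 0.06. None of these markers was called, and the part of cell content in the pair 1 values was not tested. Between both number 1 arrays, 1094 genes had identical values, but no member did. Among these genes were the markers Stmn2, Cdh5 and Kcnj8. The pair 1 median of 0.00 for endothelial and pericyte markers rests on the identical values of Cdh5 and Kcnj8.

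Beyond the 44 genes, 88 of 96 further genes of these pathways were measured in 4 lists. None was called without the block. With it 1 was called, Slc7a3, an arginine and lysine transporter that ATF4 can induce. Its values were 11.08, 9.47 and 10.17 with 1,25D, against 7.84, 7.29 and 7.53 in controls, and the adjusted p was 0.14 without and 0.022 with the block (limma). Of 26 other ATF4 targets, 17 (65.4%) had a mean difference above 0, against 53.0% of all genes. The median was 0.09, or 0.24, 0.09 and -0.02 by pair. By pair, 22, 16 and 11 of the 26 were above 0, against 49.1%, 57.2% and 47.9% of all genes. Slc1a5, a glutamine transporter, had the second smallest p of this list, at 8.16, 8.15 and 7.51 with 1,25D, against 7.51, 7.44 and 7.21 in controls. Its treated arrays 1 and 2 were above every control, while array 3 fell just below control array 1. Slc7a11, the cystine transporter, is named because of its pattern, after its values were seen. Its pair differences of 1.48, 0.57 and 0.03 put 1,25D array 1 highest, at 10.89.

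Among 34 other genes of the ATF6 and XBP1 branches, 18 (52.9%) were above 0, against 53.0% of all genes, with a median of 0.03. Derl3, an ER channel component for degradation, had 8.45, 8.35 and 8.28 with 1,25D, against 7.88, 7.85 and 7.64 in controls. Every treated array was above every control, and the pairs were alike at 0.57, 0.50 and 0.64. Its 1.48-fold difference had an adjusted p of 0.67 without and 0.11 with the block (limma). Casp12, an ER-associated caspase in mice, had 8.58, 8.69 and 8.96 with 1,25D, against 9.59, 9.25 and 9.31 in controls. Each treated array was below every control, but Casp12 was not called (adjusted p = 0.37 with the block, limma). Over all genes, 2.63% separated upward as Derl3 did and 1.52% downward as Casp12 did. In the heat shock list 7 of 19 (36.8%) were above 0 and the median was -0.07. Its smallest p-values belonged to Hspb1, the small chaperone HSP27, at -0.52 ± 0.33, and Dnajb4 at -0.13 ± 0.09 (SE). The Hspb1 value rests on control array 3, since its pair differences were -0.08, -0.02 and -1.45, and without that array the difference was -0.18. In the eIF2alpha list 4 of 9 (44.4%) were above 0, and the median was -0.04. There Eif2ak2, the kinase PKR, and Eif2b4, a subunit of the exchange factor eIF2B, had -0.17 ± 0.13 and -0.13 ± 0.10 (SE).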

How the data were processed

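The deposited intensities are, per the submitters' processing notes, RMA values from Affymetrix Expression Console (no version given). By their range these intensity values from the authors are linear, so log2 was taken. Of several rows of a gene, the brightest by its mean on the 6 arrays was kept (Dnajc3 was the single member with more than 1 row). RMA gives no detection call. Array number, not read depth, limits the precision. No column belonged to another sample.

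The comparison, 1,25D minus control, was fitted with limma 3.58.1 in R 4.3.3 (lmFit, eBayes without trend) over 19938 genes. Adjusted p is Benjamini-Hochberg over all of them, with a threshold of 0.05. The unblocked fit was tested on simulated data with independent arrays, which covers neither a shared replicate effect nor the blocked fit. The titles call the samples biological replicates without naming separate litters or cultures, so p-values reflect the spread among these samples. Deviations from the group means correlated at 0.51, 0.65 and 0.46 between equal replicate numbers, so the numbers were treated as pairs, from the data and not the labels. The fit with the replicate block stands beside the unblocked one where it changes a count or call.

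The members and lists were chosen with earlier results of these data known. Members given by array were those with the 2 smallest p-values in each role list, any called, and a fixed set of 13. Of the further pathway lists, called genes or the 2 smallest p-values were named. Older symbols were matched through RefSeq gene IDs. Promoter windows are RefSeq's on GRCm38.p6, and no build is named for the array values. Atf3, Cebpb, Phgdh, Psat1, Dnajb9, Hsph1 and Slc7a11 are given by array or pair beyond this rule, after their values were seen. Alternatives covered scaling, dim genes, rows per gene, an offset, variance model, array weights, the block, and leaving out arrays.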

Additional observations from a re-analysis of the deposited data

How the results depend on the processing

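No member was called in any setting except the blocked fit without replicate 1, where 1 was called (Nupr1). The count over all genes was 3 after quantile normalisation, 0 with all rows in the adjustment and 18 with the replicate block, and between 0 and 2 with 1 array left out. In blocked fits chosen after seeing the data, it was 40, 3 and 45 without replicates 1, 2 and 3, and 22 without genes identical on both replicate 1 arrays. In each of these blocked fits except that without replicate 2, 1 of the further pathway genes was called, Slc7a3 (log2 differences between 2.41 and 2.71). After quantile normalisation 16 members were higher and 1 lower in all 3 pairs, against 11 and 3, and the median for ER-associated degradation was 0.10, against 0.07. With 1 pair left out, 14 to 19 of 42 members were higher in both others (21.1 to 33.1% of all genes) and 3 to 10 lower (21.0 to 24.6% of all genes). With 1 array left out, the median lay between -0.073 and 0.11 for amino acid genes and between -0.048 and 0.33 for feedback genes. Over the same omissions the sign turned for Asns (-0.35 to 0.51), Mthfd2 (-0.073 to 0.62), Atf4 (-0.079 to 0.26), Chac1 (-0.048 to 0.40), Psph (-0.078 to 0.33), Hspa5 (-0.0082 to 0.25), Eif2ak3 (-0.11 to 0.046) and Ern1 (-0.083 to 0.047). Ern1 turned to 0.0052 with array weights. In the blocked fit without replicate 1, Atf4 turned to -0.040, Chac1 to -0.050 and Asns to -0.16. Without replicate 3, Hspa5 turned to -0.090, Sdf2l1 to -0.011, Eif2ak3 to 0.047 and Ern1 to 0.059. The cause of these changes was not tested. The replicate block changed no other call. Median centring, the filter on dim genes, averaged rows, the offset and the trend changed no sign or call of a named gene.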
